A study of Mus musculus with 12 samples.

Results

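The 10 genes described here encode acyltransferases that attach a fatty acyl chain to a lysophospholipid or to lysophosphatidate. They are *Lpcat1*, *Lpcat2*, *Lpcat4*, *Mboat1*, *Mboat2*, *Mboat7*, *Agpat1*, *Agpat3*, *Agpat5*, and *Lclat1*, taken by name from the 49585 genes counted, and all 10 were measured. By protein family, 7 belong to the AGPAT family and 3 to the membrane-bound O-acyltransferase (MBOAT) family. RNA-seq was performed on the adrenal cortex of 12 male mice that were 6 weeks old when feeding started. Of these, 4 mice were fed a low-fat diet (LFD, 10% of energy from fat) for 20 weeks, and 4 were fed a high-fat diet (HFD, 60% of energy from fat) for 20 weeks. The other 4 mice were fed the HFD for 20 weeks, supplemented with icosapent ethyl, the ethyl ester of eicosapentaenoic acid, in the last 10 weeks. All 12 mice carry the genotype *Fads2*-/- in the labels, whereas the methods of the study describe the fed mice as wild-type C57BL/6J, and *Fads2* was nevertheless measured in every mouse, at 452 to 2181 CPM (counts scaled to the same library size).

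Phospholipids are made and then edited. In new synthesis, lysophosphatidate acyltransferases of the AGPAT family add the second acyl chain to form phosphatidate, the precursor of all glycerophospholipids and of triacylglycerol. In the remodelling pathway known as the Lands cycle, a phospholipase A2 removes an acyl chain from a finished phospholipid and a lysophospholipid acyltransferase puts another one in its place, which sets how many polyunsaturated chains a membrane holds. Steroid-producing cells of the adrenal cortex are rich in arachidonate-containing phospholipids and in lipid droplets, and their steroid synthesis starts at the mitochondrial membrane.

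The libraries held 34785979 to 67295963 counts per mouse. CPM values below are counts scaled to library sizes adjusted by the trimmed mean of M values (TMM), and each is followed by its standard deviation (SD) over n = 4 mice. Tests were made with the quasi-likelihood method of edgeR in the 8 mice compared, and p was adjusted over all genes tested by the Benjamini-Hochberg method. Log2 fold changes are followed by standard errors (SE), computed as the absolute log2 fold change divided by the square root of the F statistic of the test. All 10 of 10 markers of adrenocortical cells were expressed, and their summed level was 44711 to 75171 CPM in LFD, 58935 to 105453 in HFD, and 61643 to 97542 in icosapent ethyl–treated mice. Chromaffin markers of the adrenal medulla were also present and ranged from 2473 to 17910 CPM in sum, with the 3 highest sums in LFD mice. In bulk tissue, fewer cells of a type and less RNA per cell cannot be told apart.

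*Lpcat2* and *Mboat1* are shown with the 250 bases before their RefSeq start (GRCm38.p6), because they belong to a set of 4 genes with the same 4 lowest mice, described further on, and because these bases, all but the last one of *Mboat1*, precede the annotated transcripts. Capitals mark a CCAAT box (CCAAT) or a GC box (GGGCGG) on either strand. The *Lpcat2* stretch lies at chr8:92855083-92855332 (plus strand) and that of *Mboat1* at chr13:30136240-30136489 (plus strand).
*Lpcat2*: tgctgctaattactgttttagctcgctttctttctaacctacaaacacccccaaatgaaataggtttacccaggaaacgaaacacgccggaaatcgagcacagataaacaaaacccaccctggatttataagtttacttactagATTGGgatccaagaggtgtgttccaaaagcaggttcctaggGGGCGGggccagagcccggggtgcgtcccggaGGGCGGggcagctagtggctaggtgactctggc
*Mboat1*: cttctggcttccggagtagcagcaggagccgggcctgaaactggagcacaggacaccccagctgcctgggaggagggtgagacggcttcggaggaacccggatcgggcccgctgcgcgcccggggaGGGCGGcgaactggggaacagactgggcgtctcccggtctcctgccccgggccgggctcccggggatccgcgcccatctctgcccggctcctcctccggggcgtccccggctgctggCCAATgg

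The *Lpcat2* stretch held 1 CCAAT box and 2 GC boxes at a GC content of 51.2%, and the *Mboat1* stretch 1 of each at 73.2%, against a median of 52.4% over all promoters. A CCAAT box was found in 33.8% and a GC box in 32.7% of the 32851 mouse promoters of the same length, so neither sets these genes apart. Of 9 members with a RefSeq promoter, none held a sterol regulatory element (TCACNCCAC, 1.05% of all promoters), an SF-1 site (CAAGGTCA, 1.33%), a cyclic AMP response element (TGACGTCA, 1.55%), an E-box (CACGTG, 6.02%), or the direct repeat DR1 (0.0335%). A partial cyclic AMP response element (TGACG, 17.8% of all promoters, also part of the full element) was found in *Lpcat1* and *Lclat1*. The *Agpat3* stretch, at chr10:78351701-78351950 (minus strand), lies inside the annotated gene. So do those of *Agpat1*, *Lpcat4*, *Mboat2*, and *Mboat7*, and the last bases of that of *Lpcat1*. None of the 8 motifs was found in the *Agpat3* stretch. These matches are letters in a short window and say nothing of the binding of a factor.

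To compare transcript levels between the genes, CPM was divided by the length of the merged exons in kilobases. In LFD mice, *Agpat1* was the most abundant at 28.5 ± 2.02 CPM per kilobase, followed by *Agpat3* at 23.7 ± 3.04, *Lclat1* at 11.6 ± 1.76, and *Mboat7* at 9.51 ± 1.09 CPM per kilobase. *Lpcat1* was at 6.52 ± 0.931, *Lpcat2* at 3.51 ± 0.594, *Agpat5* at 3.09 ± 0.154, *Mboat2* at 2.30 ± 0.126, *Lpcat4* at 1.51 ± 0.391, and *Mboat1* at 1.34 ± 0.301 CPM per kilobase. In that order, the 4 mice overlapped between *Lclat1* and *Mboat7*, between *Lpcat2* and *Agpat5*, and between *Lpcat4* and *Mboat1*, and between no other neighbours. The order in HFD mice differed at 2 places. *Agpat3*, at 38.4 ± 3.9 CPM per kilobase, stood above *Agpat1* at 29.3 ± 1.73, without overlap, and *Agpat5* stood above *Lpcat2*, also without overlap. Icosapent ethyl–treated mice had the same order as HFD mice, with *Agpat3* at 35.6 ± 3.73 and *Agpat1* at 28.4 ± 2.37 CPM per kilobase. With the longest transcript as the length, *Mboat7* moved above *Lclat1* in all 3 groups, to 23.3 CPM per kilobase against 12.7 in LFD mice. With that length, *Mboat2* also moved above *Agpat5* in LFD mice (3.24 against 3.09 CPM per kilobase) and above *Lpcat2* in HFD mice (2.84 against 2.69), but not above *Lpcat2* in icosapent ethyl–treated mice (2.68 against 2.94), so that the order of the HFD and icosapent ethyl–treated mice then differed.

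**Figure D1:**
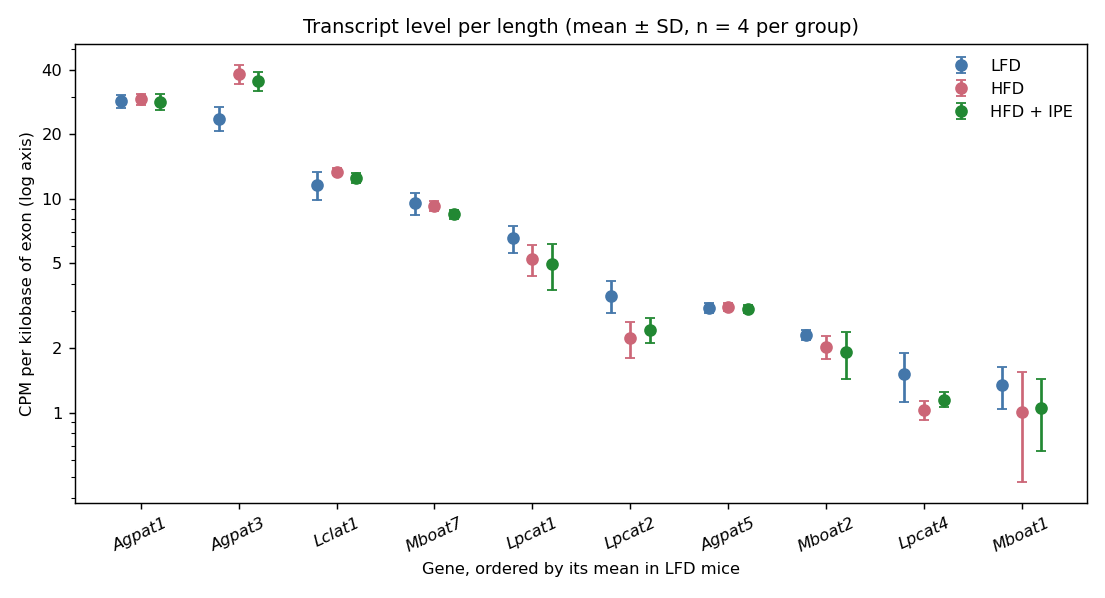
Level per length of the 10 genes (CPM per kilobase of merged exon, log axis) in LFD, HFD, and icosapent ethyl–treated mice (HFD + IPE), ordered by the LFD mean, with points for the mean and bars for the SD of 4 mice. *Agpat3* is the only gene that changes places with *Agpat1* at the top, at 38.4 CPM per kilobase in HFD against 23.7 in LFD mice.

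The comparison of HFD with LFD mice asks how the cortex transcriptome differs in diet-induced obesity. *Agpat3* rose 1.61-fold in HFD mice and was the only one of the 10 genes with an adjusted p below 0.05. *Lpcat2* was lower in every HFD mouse than in any LFD mouse but did not pass the threshold. The 4 genes that act on lysophosphatidate or lysocardiolipin (*Agpat1*, *Agpat3*, *Agpat5*, and *Lclat1*) had log2 fold changes above 0 (48.2% of all genes), with a median of 0.12, and the 6 that act on other lysophospholipids had log2 fold changes below 0, with a median of -0.37. For *Agpat1* and *Agpat5* these values were small, 0.04 and 0.01, and they turned to -0.07 and -0.09 with library totals in place of TMM scaling, which moved the median of all genes from -0.015 to -0.11. By protein family, 4 of the 7 AGPAT genes were above 0 and 3 below, and all 3 MBOAT genes were below. The grouping by substrate was not tested, and it did not hold for every acyltransferase outside the 10. *Agpat2* and *Agpat4*, also of the lysophosphatidate kind, had log2 fold changes of 0.75 and -0.08. *Lpcat3* and *Lpgat1*, which act on other lysophospholipids, had 0.26 and 0.47, and none of these was called by edgeR. The call of 1 member in 10 stands beside 1.45% called of the 15909 genes tested (0.974% higher and 0.471% lower). At an unadjusted p below 0.05, 3 members differed (*Agpat3*, *Lpcat2*, and *Lpcat4*), beside 24.8% of all genes. The groups were fully apart in 2 members, *Agpat3* (higher) and *Lpcat2* (lower), beside 13.5% of all genes (7.71% higher and 5.81% lower). The median log2 fold change of the 10 members was -0.12, beside -0.015 for all genes.

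**Figure D2:**
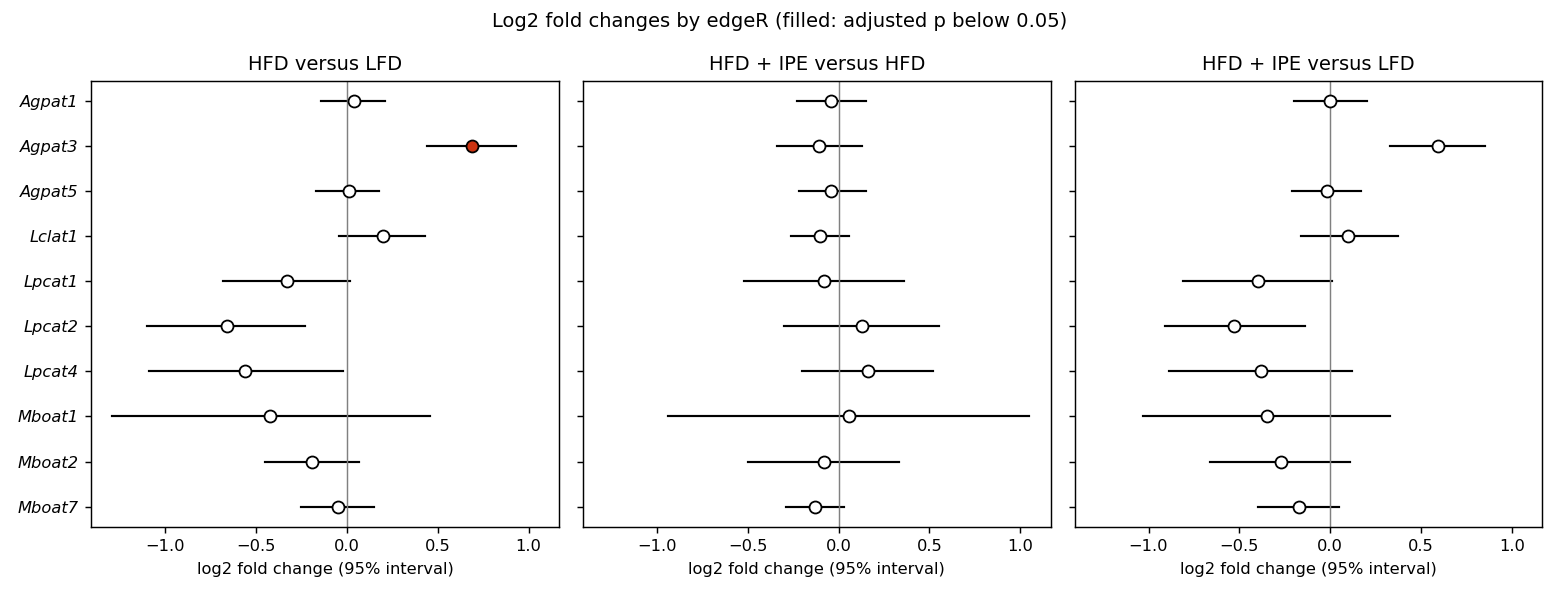
Log2 fold changes of the 10 genes by edgeR with 95% intervals, in a panel for each comparison, filled where the adjusted p was below 0.05. The filled point is *Agpat3* in HFD versus LFD mice at 0.69, and every interval in the comparison of icosapent ethyl–treated with HFD mice includes 0.

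*Agpat3* (ENSMUSG00000001211, chr10:78269178-78352489 of GRCm38, minus strand) encodes a lysophosphatidate acyltransferase of the endoplasmic reticulum and Golgi, known for building phospholipids with docosahexaenoate. LFD replicates 2, 5, 6, and 7 had 153, 202, 182, and 203 CPM. HFD replicates 1 to 4 had 264, 320, 284, and 329 CPM, and icosapent ethyl–treated replicates 1 to 4 had 312, 243, 270, and 286 CPM. Every mouse on the HFD, with or without icosapent ethyl, was above every LFD mouse. The LFD mean of 185 ± 23.7 and the HFD mean of 299 ± 30.4 CPM differed by 0.69 on the log2 scale (SE 0.11, 95% interval 0.44 to 0.93), with an adjusted p of 0.0376 by edgeR. Between 8117 and 17708 counts lay behind each value, so that counting error was small beside the difference. Leaving out HFD replicate 1 kept the call (adjusted p = 0.0188 by edgeR), and leaving out any of the other 7 mice ended it, with adjusted p from 0.0505 to 0.133 by edgeR and log2 fold changes from 0.61 to 0.73. The Wald test of DESeq2 gave 0.70 with an adjusted p of 0.000132.

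Since a ratio of genes within a mouse does not depend on the scaling of libraries, *Agpat3* was also set against the other members, a comparison chosen after its values were seen and given without a test. *Agpat3* made up 25.8 ± 1.67% of the summed level per kilobase of the 10 genes in LFD mice (23.8% to 27.6%), 36.5 ± 1.82% in HFD mice (34.6% to 38.6%), and 35.7 ± 2.06% in icosapent ethyl–treated mice (33.3% to 37.9%). The ratio of *Agpat3* to *Agpat1* per kilobase was 0.749 to 0.950 in LFD mice, 1.2 to 1.38 in HFD mice, and 1.14 to 1.40 in icosapent ethyl–treated mice. By both measures, the LFD mice lay apart from the other 8, and the HFD and icosapent ethyl–treated mice overlapped.

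Several marker lists also differed in level between the diets. Adrenocortical markers had higher means in HFD mice in all 10 genes (median log2 fold change 0.50, none called), and chromaffin markers had lower means in all 10 (median -1.19, none called). Capsule and stroma markers had lower means in all 7 (median -0.59, none called), with sums of 348 to 624 CPM on the LFD and 235 to 344 on the HFD. Adipocyte markers had a median of 0.46, with 2 of 8 lower, and endothelial markers a median of -0.01, with 6 of 8 lower, and none of them was called. Of 5 mesothelial markers, 3 were tested and all 3 had lower means, with sums of at most 8.18 CPM on the LFD and 3.83 on the HFD. The 4 mice with the highest macrophage marker sums were the 4 LFD mice (729 to 1094 CPM, against 512 to 702 in the other 8), and they were also the 4 mice with the least *Agpat3*. Any gene with all LFD mice below the other 8 would match this sum in the same way. The part of cell composition in the *Agpat3* difference was not tested.

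**Figure D3:**
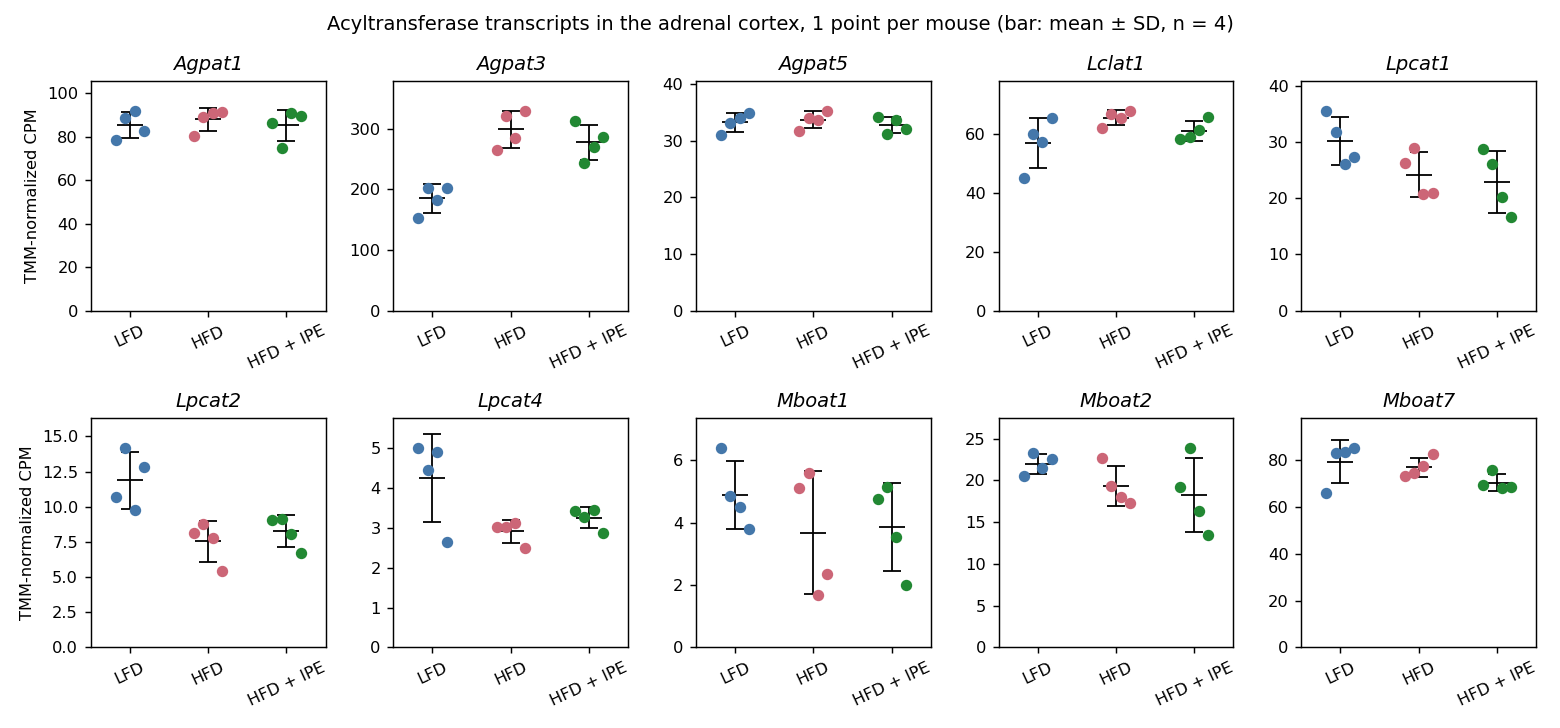
TMM-normalized CPM of the 10 genes in each of the 12 mice, grouped by diet, with a point per mouse and a bar for the mean ± SD of 4 mice (HFD + IPE, icosapent ethyl–treated). *Agpat3* lies at 153 to 203 CPM in LFD and at 243 to 329 CPM in the other mice, and *Agpat5* stays between 31.0 and 35.2 CPM throughout.

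None of the other 3 genes of this kind was called between diets. *Agpat1* (ENSMUSG00000034254, chr17:34604262-34613449, plus strand), a lysophosphatidate acyltransferase of the endoplasmic reticulum, averaged 85.4 ± 6.06 CPM on the LFD, 88.0 ± 5.20 in HFD, and 85.4 ± 7.10 in icosapent ethyl–treated mice. Its 95% interval for HFD against LFD mice was -0.14 to 0.21 on the log2 scale. *Agpat5* (ENSMUSG00000031467, chr8:18846277-18891361, plus strand), whose product is found at mitochondria and the endoplasmic reticulum, varied least of the 10 genes. It ranged from 31.0 to 35.2 CPM over the 12 mice, a coefficient of variation of 4.29%, against 22.7% for *Agpat3* and 36.1% for *Mboat1*. Its interval for HFD against LFD mice was -0.17 to 0.18. *Lclat1* (ENSMUSG00000054469, chr17:73107985-73243368, plus strand), which reacylates lysocardiolipin, had 45.0, 60.1, 57.3, and 65.3 CPM in LFD replicates 2, 5, 6, and 7, and 62.1 to 67.8 CPM in HFD mice. LFD replicate 7 lay among the HFD mice, and the log2 fold change of 0.20 (SE 0.11, 95% interval -0.04 to 0.43) had an adjusted p of 0.278 by edgeR. Both *Agpat1* and *Mboat7* overlap a gene on the other strand (*Egfl8* and *Tsen34*), and the counting used strand. Other-strand overlaps were also listed for *Agpat3* (*n-R5s77*), *Agpat5* (*Gm35934*), *Lclat1* (*Gm9311*), *Lpcat2* (*Gm45472* and *Gm22151*), and *Mboat1* (*Gm23206*).

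The 3 LPCAT genes among the members had lower means in HFD mice, whereas *Lpcat3*, a gene of the list of other acyltransferases that places polyunsaturated chains into phosphatidylcholine, averaged 88.1 ± 11.7 CPM on the LFD and 106 ± 19.3 on the HFD (adjusted p = 0.276 by edgeR). *Lpcat2* (ENSMUSG00000033192, chr8:92855339-92919279, plus strand), whose product also makes platelet-activating factor in macrophages and neutrophils, had 10.7, 14.2, 9.79, and 12.8 CPM in LFD replicates 2, 5, 6, and 7. HFD replicates 1 to 4 had 8.17, 8.79, 7.81, and 5.45 CPM, and icosapent ethyl–treated replicates 1 to 4 had 9.07, 9.14, 8.09, and 6.73 CPM. All 4 LFD mice were above the other 8. The LFD mean of 11.9 ± 2.01 and the HFD mean of 7.55 ± 1.46 CPM differed by -0.66 on the log2 scale (SE 0.19, 95% interval -1.10 to -0.23) with an adjusted p of 0.0941 by edgeR. DESeq2 gave -0.65 with an adjusted p of 0.0168, past the threshold. *Capns2* overlaps *Lpcat2* on the same strand, and the effect of this overlap on the *Lpcat2* counts was not examined. Same-strand overlaps were also listed for *Agpat3* (*Mir7659*), *Agpat5* (*Gm45493*), *Lclat1* (*Gm25406*), and *Mboat1* (*Gm11366*). Of 10 macrophage markers, 8 had lower means in HFD mice and 4 were called lower, with a median log2 fold change of -0.56. Their summed level was 729 to 1094 CPM in LFD, 512 to 619 in HFD, and 561 to 702 in icosapent ethyl–treated mice, so that the 4 LFD mice were highest in both the marker sum and *Lpcat2*. Of these markers, *Cd163* had a mean below 1 CPM and none was at 0. Their part in the *Lpcat2* values was not tested, and any gene with all LFD mice above the other 8 would match their sum in this way.

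*Lpcat4* (ENSMUSG00000027134, chr2:112239468-112247111, plus strand), which prefers lysophosphatidylethanolamine, was one of the least expressed members. It had 5.02, 4.46, 4.90, and 2.64 CPM in LFD replicates 2, 5, 6, and 7, between 2.49 and 3.14 CPM in HFD mice, and between 2.87 and 3.45 CPM in icosapent ethyl–treated mice. LFD replicate 7 lay among the HFD mice. The log2 fold change of -0.56 (SE 0.24) had an adjusted p of 0.188 by edgeR. The 4 mice with the most *Lpcat4* (LFD replicates 2, 5, and 6 and icosapent ethyl–treated replicate 3, at 3.45 to 5.02 CPM) were the 4 mice with the highest chromaffin marker sums, from 8719 to 17910 CPM. Both gaps were small, as the other mice reached 3.42 CPM of *Lpcat4* and a sum of 8511 CPM. The same 4 mice were highest in 1.54% of 16262 genes. *Lpcat1* (ENSMUSG00000021608, chr13:73467197-73516422, plus strand), known for making the dipalmitoyl phosphatidylcholine of lung surfactant, averaged 30.2 ± 4.31 CPM on the LFD and 24.2 ± 4.05 on the HFD. Its groups overlapped, and the log2 fold change of -0.33 (SE 0.16) had an adjusted p of 0.224 by edgeR.

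All 3 MBOAT genes had log2 fold changes below 0 in HFD mice, and none was called. *Mboat7* (ENSMUSG00000035596, chr7:3677789-3693523, minus strand) places arachidonate into phosphatidylinositol. It averaged 79.3 ± 9.1 CPM on the LFD and 77.0 ± 4.09 on the HFD, and the 95% interval of the difference was -0.25 to 0.15 on the log2 scale. *Mboat2* (ENSMUSG00000020646, chr12:24830879-24964397, plus strand), which acts on lysophosphatidylcholine and lysophosphatidylethanolamine, was at 22.0 ± 1.2 and 19.3 ± 2.38 CPM, a log2 fold change of -0.19 (SE 0.12). *Mboat1* (ENSMUSG00000038732, chr13:30136489-30246717, plus strand) acts on lysophosphatidylserine and lysophosphatidylethanolamine and varied most of the 10 genes. LFD replicates 2, 5, 6, and 7 had 6.41, 4.86, 4.52, and 3.80 CPM of *Mboat1*, and HFD replicates 1 to 4 had 5.11, 5.61, 1.68, and 2.35 CPM. HFD replicates 1 and 2 lay among the LFD mice, and replicates 3 and 4 below all of them. The log2 fold change of -0.42 (SE 0.39) had an adjusted p of 0.536 by edgeR. The lowest count of *Mboat1* was 69, for which counting error alone is 12%, against a coefficient of variation of 53.2% within the HFD group.

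*Lpcat1*, *Lpcat2*, *Mboat1*, and *Mboat2* were lowest in the same 4 mice, HFD replicates 3 and 4 and icosapent ethyl–treated replicates 3 and 4, an arrangement noticed after the values were seen. *Lpcat1* was at 16.6 to 21.0 CPM in these 4 mice and at 26.0 to 35.5 CPM in the other 8. *Mboat2* was at 13.5 to 18 against 19.2 to 23.9 CPM, and *Mboat1* at 1.68 to 3.55 against 3.80 to 6.41 CPM. *Lpcat2* was at 5.45 to 8.09 against 8.17 to 14.2 CPM, with almost no gap. The 4 mice come from both groups on the HFD, so the diet labels do not define them, but they share the replicate numbers 3 and 4. They were also the 4 mice with the highest adrenocortical marker sums, 78815 to 105453 CPM, against at most 75569 CPM in the other 8. Of 16262 genes, 491 (3.02%) had their 4 lowest values in these mice. *Lpcat4* and *Mboat7* had 2 of these mice among their 4 lowest. *Agpat5* had 1, and *Agpat1*, *Agpat3*, and *Lclat1* had none. With the replicate number as a block, the SE for icosapent ethyl–treated versus HFD mice was 0.106 for *Lpcat1*, beside 0.194 without it. It was 0.126 beside 0.188 for *Lpcat2*, 0.256 beside 0.438 for *Mboat1*, and 0.133 beside 0.184 for *Mboat2*. For the other members it changed less, as for *Agpat3* (0.108 beside 0.104). The parts of the share of cortical cells and of the replicate number in this arrangement were not tested.

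**Figure D4:**
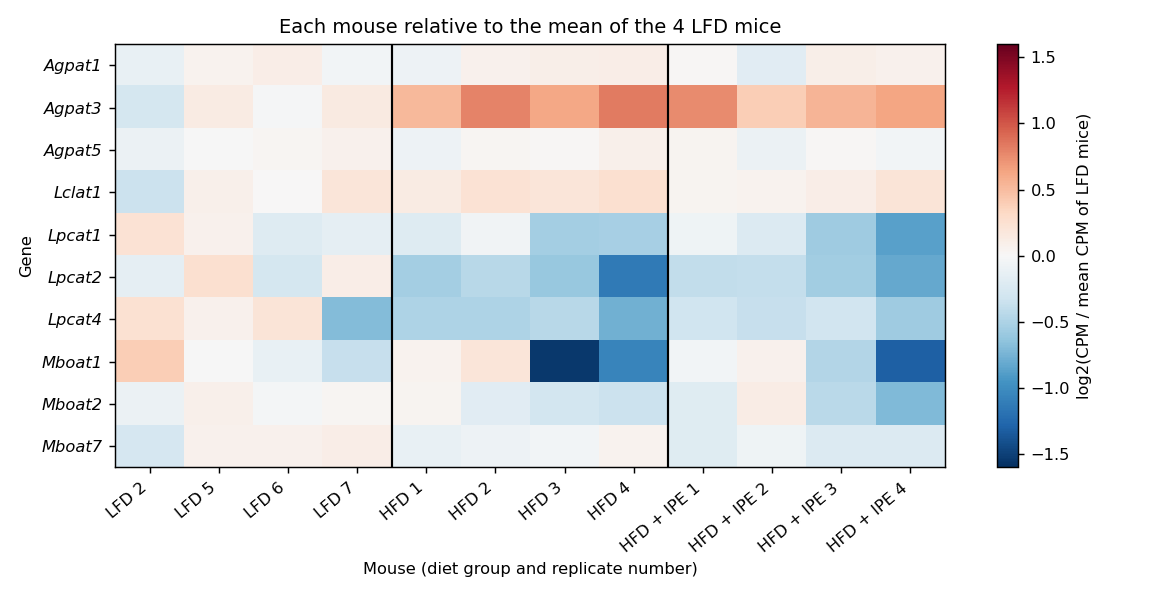
Log2 ratio of each mouse to the mean CPM of the 4 LFD mice (colour) for the 10 genes (rows) and 12 mice (columns, diet group and replicate number, HFD + IPE for icosapent ethyl–treated). *Agpat3* is above the LFD mean in all 8 mice on the HFD, and *Lpcat1*, *Lpcat2*, *Mboat1*, and *Mboat2* are lowest in replicates 3 and 4 of both HFD groups.

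**Figure D5:**
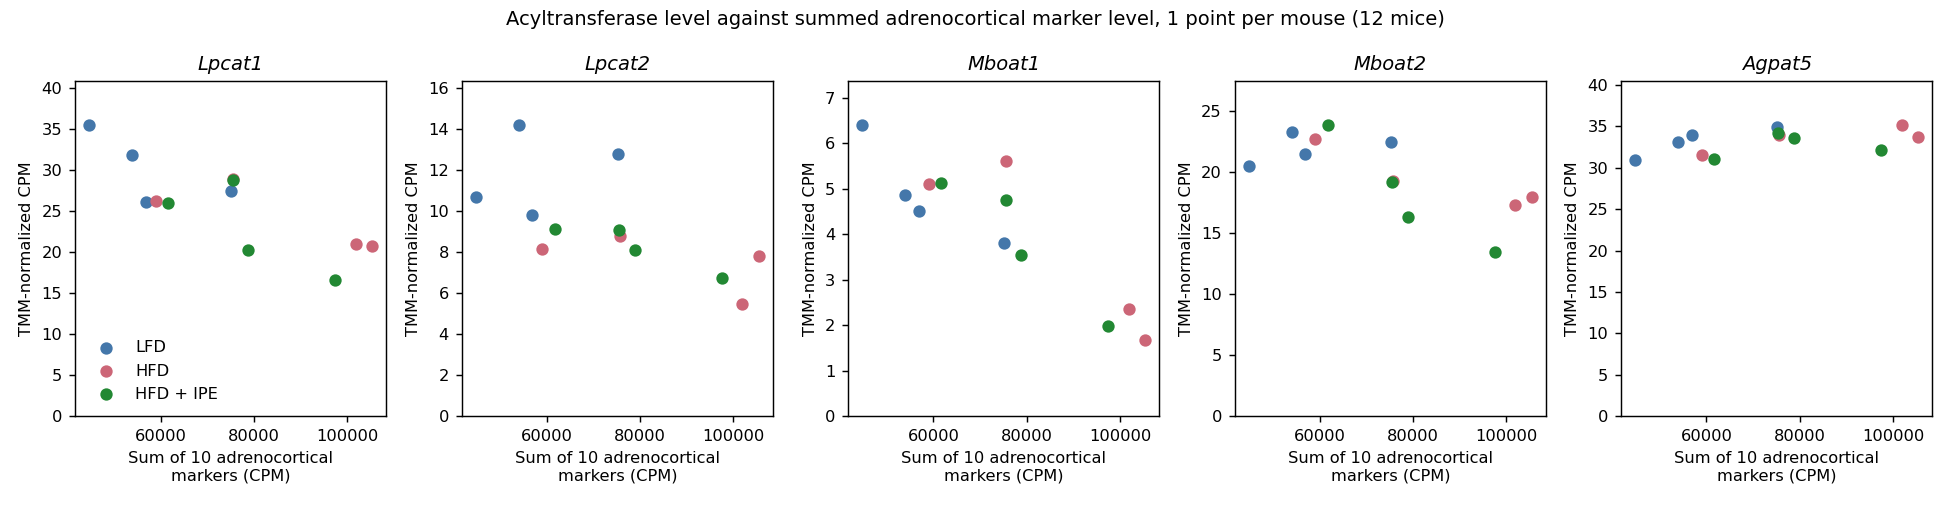
TMM-normalized CPM of the genes in the panel titles (vertical axis) against the sum of the 10 adrenocortical markers (horizontal axis, CPM), with a point per mouse coloured by diet group (HFD + IPE, icosapent ethyl–treated). In *Lpcat1*, *Lpcat2*, *Mboat1*, and *Mboat2*, the 4 mice with sums from 78815 to 105453 CPM lie below the other 8, and *Agpat5*, shown for contrast, stays between 31.0 and 35.2 CPM.

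The comparison of icosapent ethyl–treated with HFD mice asks what the supplement changes on the same diet. None of the 10 members passed the threshold by edgeR, none had an unadjusted p below 0.05, and in none were the groups apart. Of the 15913 genes tested, 0% were called, 1.39% had an unadjusted p below 0.05, and 1.14% did not overlap (0.484% higher and 0.66% lower). DESeq2 called 7 genes, none of them a member. The members' log2 fold changes ran from -0.13 for *Mboat7* to 0.16 for *Lpcat4*, with 3 above 0 (51.1% of all genes) and a median of -0.06 beside 0.004. *Agpat3* was at 278 ± 29.0 CPM with and 299 ± 30.4 CPM without icosapent ethyl, a log2 fold change of -0.11 with a 95% interval of -0.34 to 0.13. *Mboat7* was at 70.4 ± 3.70 CPM with and 77.0 ± 4.09 without, with an interval of -0.29 to 0.03. The intervals were narrow for *Lclat1* (-0.26 to 0.06), *Agpat1* (-0.23 to 0.15), and *Agpat5* (-0.22 to 0.15). They were wider for *Lpcat4* (-0.20 to 0.52), *Lpcat2* (-0.30 to 0.55), *Lpcat1* (-0.52 to 0.36), and *Mboat2* (-0.50 to 0.33), and widest for *Mboat1* (-0.94 to 1.05). With the replicate number as a block, the log2 fold change of *Mboat1* was 0.13 (SE 0.256), beside 0.06 (SE 0.44) without it, and that of *Lpcat1* was -0.10 (SE 0.106), beside -0.08 (SE 0.19).

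Against LFD mice, which are the controls of the first comparison as well, the icosapent ethyl–treated mice had no member past the threshold by edgeR (0% of 15935 genes). *Agpat3* was at 278 ± 29.0 against 185 ± 23.7 CPM, a log2 fold change of 0.59 (SE 0.12, 95% interval 0.33 to 0.85) with an adjusted p of 0.184 by edgeR and of 0.00394 by DESeq2. *Lpcat2* was at 8.26 ± 1.12 against 11.9 ± 2.01 CPM, a log2 fold change of -0.53 (SE 0.17, 95% interval -0.91 to -0.14) with an adjusted p of 0.267 by edgeR. These were the 2 members with an unadjusted p below 0.05 (14% of all genes) and the 2 without overlap (7.73% of all genes, 4.04% higher and 3.69% lower). Of the others, *Lpcat1* had -0.40, *Lpcat4* -0.38, *Mboat1* -0.35, *Mboat2* -0.27, and *Mboat7* -0.17 on the log2 scale, and *Agpat1*, *Agpat5*, and *Lclat1* lay between -0.02 and 0.10. Of the 10 values, 3 were above 0 (49.4% of all genes), and their median was -0.22, beside -0.004.

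Other enzymes of the pathway were counted in 4 lists. Of 12 other glycerolipid acyltransferases, 11 were tested in HFD against LFD mice, 1 was called higher and none lower, and 10 had a log2 fold change above 0 (48.2% of all genes), with a median of 0.26. The gene called was *Gpam*, the mitochondrial glycerol-3-phosphate acyltransferase that makes lysophosphatidate, with LFD and HFD means of 13.5 ± 4.74 and 52.0 ± 27.3 CPM and a difference of 1.94 on the log2 scale (SE 0.36, adjusted p = 0.0450 by edgeR). Of 20 phospholipases, 17 were tested, none was called higher and 1 lower. It was *Pla2g7*, a secreted enzyme that degrades platelet-activating factor and is made by macrophages, with means of 47.1 ± 9 and 24.9 ± 4.95 CPM (difference -0.92 on the log2 scale, SE 0.17, adjusted p = 0.0450 by edgeR). Of 11 genes of acyl-CoA supply, 1 was called higher and none lower. It was *Acsl1*, which activates long-chain fatty acids, with means of 51.2 ± 4.27 and 87.0 ± 6.82 CPM (difference 0.76 on the log2 scale, SE 0.089, adjusted p = 0.0293 by edgeR). In these 3 lists, DESeq2 called 3 acyltransferases higher and none lower (*Agpat2*, *Dgat2*, and *Gpam*), 1 phospholipase higher (*Pla1a*) and 1 lower (*Pla2g7*), and 3 genes of acyl-CoA supply higher (*Acsl1*, *Acsl4*, and *Fads2*) and 2 lower (*Elovl2* and *Scd1*). Over all 15909 genes tested in this comparison, edgeR called 0.974% higher and 0.471% lower. DESeq2 called 1965 genes, 974 of them higher and 991 lower. It gave a p to 25998 genes, including any that its filter left without an adjusted p. None of the 27 genes that use phosphatidate or add head groups was called by edgeR. Of them, 10 had an unadjusted p below 0.05 by edgeR, beside 24.8% of all genes. In the other lists, 4 of 11 acyltransferases, 3 of 17 phospholipases, and 7 of 11 genes of acyl-CoA supply did. DESeq2 called 2 of the 27 higher (*Lpin2* and *Pcyt1a*) and 1 lower (*Lpin1*). The 2 most abundant genes of this list encode phosphatidate phosphatases, with *Plpp3* at 275 ± 78.1 and 431 ± 125 CPM (adjusted p = 0.156 by edgeR) and *Plpp1* at 329 ± 48.1 and 359 ± 39.5 CPM (adjusted p = 0.556) in LFD and HFD mice.

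Between icosapent ethyl–treated and HFD mice, none of the 11 acyltransferases, 17 phospholipases, 27 genes of phosphatidate use, and 11 genes of acyl-CoA supply tested was called by edgeR or by DESeq2. In that order, 1, 0, 0, and 1 of them had an unadjusted p below 0.05 by edgeR, beside 1.39% of all genes. The 2 most abundant genes of each list had log2 fold changes of -0.15 for *Gpat4* and -0.06 for *Agpat4*, -0.18 for *Pla2g5* and -0.15 for *Abhd3*, -0.25 for *Plpp3* and -0.06 for *Plpp1*, and -0.56 for *Fads1* and -0.15 for *Scd2*. All of these had an adjusted p of 1 by edgeR. Against LFD mice, none was called by edgeR, with 2, 2, 2, and 4 at an unadjusted p below 0.05, beside 14% of all genes. DESeq2 called *Gpam*, *Lpin2*, and *Acsl1* higher and *Pla2g7* and *Scd1* lower, beside 417 genes called in all. It gave a p to 26103 genes, including any left without an adjusted p. The most abundant genes of the lists then had log2 fold changes of -0.11 for *Gpat4* and -0.14 for *Agpat4*, -0.31 for *Pla2g5* and 0.00 for *Abhd3*, 0.40 for *Plpp3* and 0.07 for *Plpp1*, and 0.26 for *Fads1* and -0.14 for *Scd2*.

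*Agpat3* was the member called, and the genes with the most similar pattern over the 12 mice were therefore sought. Likeness was the root mean square difference of log2 CPM, each gene centred on its own mean, among 13458 genes of at least 1 CPM. The nearest were *Prep* (0.098), *Ikbkg* (0.100), and *Pde8b* (0.103), against a median of 0.407 over all genes and a spread of *Agpat3* itself of 0.339. *Prep*, a prolyl endopeptidase, had mean levels of 58.2, 91.0, and 83.3 CPM in LFD, HFD, and icosapent ethyl–treated mice. *Ikbkg*, the regulatory subunit of the IκB kinase, had 67.9, 109, and 100 CPM, and *Pde8b*, a cyclic AMP phosphodiesterase expressed in the adrenal cortex, had 53.8, 85.8, and 74.2 CPM.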

How the data were processed

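Adrenal cortex RNA-seq covered 12 mice, 4 per group, with groups and replicate numbers taken from the labels. The deposited values were raw read counts per gene. The authors made strand-specific libraries, trimmed adaptors with cutadapt, aligned reads to GRCm38 with STAR, and counted them on the GENCODE release M12 genes with HTSeq 0.6.1p1 in reverse-strand mode. Of the 66 pairs of libraries, none were copies (lowest chi-square per degree of freedom 24.5).

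Symbols, coordinates, and lengths were taken from GENCODE release M21, which matched 49326 of 49585 genes, and promoters from RefSeq. Counts were tested by the package edgeR 4.0.16, run under R 4.3.3, with TMM scaling (filterByExpr with a minimum count of 10, robust quasi-likelihood fit, no covariates, threshold 0.05), and the procedure was tested on simulated data. The alternatives were DESeq2 1.42.0 (Wald test), its size factors, library totals, no filter, a minimum of 10 counts in every mouse, 1 fit over all 12 mice, each mouse left out, and the replicate number as a block. Deviations of same-numbered HFD and icosapent ethyl–treated mice correlated at 0.240, 0.116, 0.340, and 0.632. Differently numbered mice also correlated, with 0.598 for HFD replicate 1 and icosapent ethyl–treated replicate 2, and nothing in the labels explains the numbers. The main test left these mice unpaired, and the replicate number entered only as a block in an alternative fit. LFD mice share only the number 2 with the others.

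All 10 members are named. From each pathway list, genes past the threshold are named, or the 2 most abundant where none passed. The members, lists, and tests were chosen with earlier results of these data known. Intervals were built from the SE and cover the spread between mice as the fit estimates it. Promoter matches were counted without regard to overlap between motifs. The lipid and hormone measurements were not analysed here.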

Additional observations from a re-analysis of the deposited data

Results flagged for a closer look

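The 30 groups of 4 values (10 genes in 3 groups) were searched for a mouse far from the other 3, and 2 were found, where chance gives about 1 in 20. Both were values of *Mboat7*. LFD replicate 2 had 65.8 CPM, against 82.9 to 85.3 CPM in the other LFD mice, a gap of 0.88 of the range of the group. Icosapent ethyl–treated replicate 2 had 75.9 CPM, against 68.0 to 69.2 CPM in the other 3, a gap of 0.846 of the range.

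LFD replicate 2 was the lowest LFD mouse in 6 of the 10 genes and the highest in 3. It had the lowest adrenocortical marker sum of the 12 mice (44711 CPM), the highest sum of capsule and stroma markers (624 CPM), and a chromaffin sum of 15713 CPM. Without it, the log2 fold change of *Agpat3* in HFD versus LFD mice was 0.61, with an adjusted p of 0.0505 by edgeR.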

How the results depend on the processing

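For HFD versus LFD mice, DESeq2 called 1965 genes and 2 members, library totals 84 genes, and all 12 mice in 1 fit 556 genes, beside 230 genes and 1 member. Leaving out each mouse gave 0 to 918 genes and 0 to 1 members. Omitting HFD replicate 1 gave the 918, omitting LFD replicate 2 gave 78, and each of the other 6 omissions gave 0, where 2711 to 3990 genes had an unadjusted p below 0.05. The cause was not tested. For icosapent ethyl–treated versus HFD mice, DESeq2 called 7 genes. Against LFD mice, DESeq2 called 417 genes and 1 member, all 12 mice in 1 fit 2 genes, and leaving out each mouse 0 to 1 genes. With the replicate number as a block, 0 genes and 0 members were called between icosapent ethyl–treated and HFD mice, so that the block changed no call, and 696 genes had an unadjusted p below 0.05, beside 221.

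Signs turned where the log2 fold change was near 0. For HFD versus LFD mice, *Agpat1* was -0.07 and *Agpat5* -0.09 with library totals, *Agpat5* was -0.00 with 10 counts in every mouse, and *Agpat5* ranged from -0.02 to 0.03 when each mouse was left out. For icosapent ethyl–treated versus HFD mice, *Agpat1* was 0.02 and *Agpat5* 0.03 with library totals. When each mouse was left out, *Agpat1* ranged from -0.08 to 0.01, *Lpcat1* from -0.21 to 0.05, *Lpcat2* from -0.00 to 0.21, *Mboat1* from -0.18 to 0.33, and *Mboat2* from -0.24 to 0.04. Against LFD mice, *Agpat1* was -0.05 with library totals, -0.00 with 10 counts in every mouse, and -0.00 with all 12 mice in 1 fit, and it ranged from -0.04 to 0.06 when each mouse was left out, as *Agpat5* did from -0.05 to 0.01. *Agpat3* ranged from 0.59 to 0.74 and *Lpcat2* from -0.75 to -0.53 for HFD versus LFD mice over all alternatives. Of the members' log2 fold changes under the alternatives, 127 of 140 (HFD versus LFD), 138 of 150 (icosapent ethyl–treated versus HFD), and 129 of 140 (against LFD) kept their direction and side of the threshold. Counting error at the lowest count, 1.11% for *Agpat3* to 12% for *Mboat1*, was below the coefficient of variation over the 12 mice in each of the 10 genes.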
